A study of Mus musculus with 6 samples.

Results

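Ubiquitin ligases are the enzymes that choose which proteins are marked with ubiquitin for the proteasome, and a small set of them is known from wasting muscle. Here 10 such genes were followed in the muscle of mice that lack the proteasome subunit Rpt3: Fbxo32, which encodes atrogin-1, Fbxo30, Fbxo40, Fbxo21, Fbxo31, Nedd4, Cblb, Trim32, Traf6 and Stub1. Probes were matched to the genes by symbol through the platform annotation of the array. The genes themselves were chosen with earlier results of these data known. Of the 10 genes 8 had a named probe, with 13 probes in all, among 18562 named genes of the array. Fbxo40, which encodes a muscle F-box protein that targets the insulin receptor substrate Irs1, and Nedd4, a HECT-type ligase, had no named probe and have no value here. Trim63, the gene of MuRF1, had none either.

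RNA came from 3 Rpt3-/- mice, labelled Rpt3 null, and 3 Rpt3+/+ mice, labelled control, all females of 6 weeks. The labels give both groups the strain mlc1f-Cre/ Rpt3-floxed, while the study describes its Rpt3+/+ controls as Cre-positive without floxed alleles, so that both groups carry Cre. Cre is driven by the myosin light chain 1 fast promoter, which is known to act in fast-twitch fibers, so slow fibers and the other cells of the muscle may keep Rpt3. The labels name the tibialis anterior and the study's text the gastrocnemius. Each mouse was measured on 1 single-color CodeLink array, and brightness was compared as log2 intensity after background correction and quantile normalization.

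The ligases work in different ways. Fbxo32, Fbxo30, Fbxo21, Fbxo31 and Fbxo40 encode F-box proteins, the exchangeable part of SCF ligases, in which Skp1, Cul1 and Rbx1 form the core and the F-box protein binds the substrate. In wasting muscle atrogin-1 and several of the others are known to be induced by FoxO transcription factors, which insulin signaling through Akt keeps out of the nucleus. Cblb and Trim32 are RING-type ligases, Stub1 encodes the U-box ligase CHIP that works with Hsp70 and Hsp90, and Traf6 builds ubiquitin chains that serve in signaling.

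Testing with limma was limited to genes whose probe rose above background on 3 or more of the 6 arrays, 14731 in all, and a gene was called at a p under 0.05 after adjustment over all of them. Psmc4, which encodes Rpt3, was 2.24-fold lower in Rpt3-/- mice by its brighter probe (limma, adjusted p = 0.00031), with no overlap of the groups. By its other probe the log2 fold change was -0.23. That probe was dim, between 6.15 and 6.77, and above background on 2 of the 3 arrays of each group. The sources used here do not place these probes inside or outside the deleted part. The share of probes above background was between 69.2% and 72.7% on the Rpt3-/- arrays and between 57.0% and 74.5% on the Rpt3+/+ arrays, the second of which was the dimmest. In these whole-muscle samples fewer cells of a type and less RNA per cell cannot be told apart.

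Of the 7 ligase genes that could be tested, 2 were higher in Rpt3-/- mice, none was lower and 5 were not called. Over all genes 12.7% were called higher and 6.56% lower by the same rule, or 19.3% in either direction. The genes called were Fbxo32, 3.79-fold higher, and Fbxo31, 1.66-fold higher by its brightest probe. Without adjustment, at p under 0.05 from limma, 3 were higher and none lower, and the unpaired test of the study's statistics section called 2 higher and none lower. Every Rpt3-/- array lay above every Rpt3+/+ array for 3 genes, Fbxo32, Fbxo31 and Fbxo30, against 21.2% of all genes, and for none did every Rpt3-/- array lie below, against 15.6%. The median log2 fold change of the 7 genes was 0.30, and that of all tested genes -0.01. This median is the value of Fbxo21 by its brighter probe, which was not called, and the other probe of Fbxo21 was at -0.03.

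Of the 10 ligase probes that could be tested 2 were higher and none lower, where 9.51% of all probes were higher and 5.31% lower, or 14.8% in either direction.

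**Figure D1:**
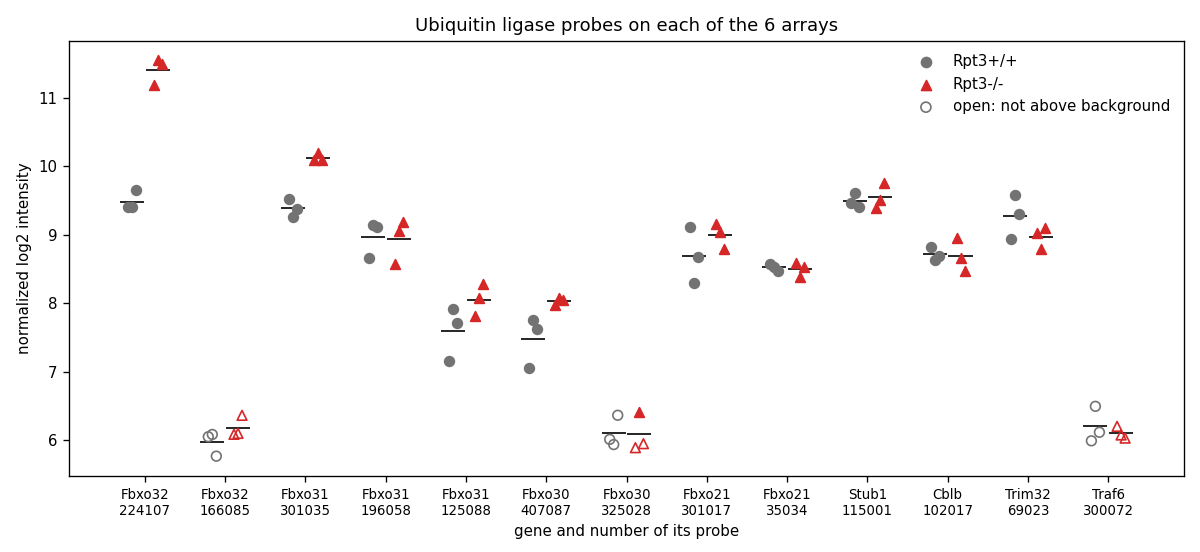
Normalized log2 intensity (y axis) of the 13 probes of the ligase genes (x axis) on each array. The 3 Rpt3+/+ arrays are drawn as gray circles and the 3 Rpt3-/- arrays as red triangles, with short lines at the group means and open symbols for spots not above background, and the Rpt3-/- arrays of Fbxo32 probe 224107 lie between 11.19 and 11.54, against 9.40 to 9.65 in Rpt3+/+ mice.

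Fbxo32 was the ligase with the largest change. Atrogin-1, its product, is a muscle F-box protein used as a marker of atrophy. The log2 intensity of probe 224107 was 11.19, 11.54 and 11.49 in the Rpt3-/- mice, against 9.40, 9.40 and 9.65 in the Rpt3+/+ mice. The lowest Rpt3-/- array was thus well above the highest Rpt3+/+ array, and each group was tight. Rpt3-/- mice averaged 11.40 ± 0.19 and Rpt3+/+ mice 9.48 ± 0.14 (SD, n = 3 each), which differ by 1.92 on the log2 scale (standard error 0.14, 95% interval 1.60 to 2.25, limma, adjusted p = 3.34e-05). As a ratio the interval ran from 3.03-fold to 4.74-fold. By size of the rise Fbxo32 stood at place 54 of 14731 genes. The authors' own value table gave this probe intensities of 2318, 2946 and 2859 in Rpt3-/- mice and 636, 635 and 764 in Rpt3+/+ mice. The other probe of Fbxo32, 166085, was not above background on any array, with log2 intensities between 5.77 and 6.36, and gave no fold.

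Fbxo31 encodes an F-box protein known for the breakdown of cyclin D1 after DNA damage. Its brightest probe, 301035, was at 10.09, 10.19 and 10.09 in Rpt3-/- mice, against 9.52, 9.26 and 9.38 in Rpt3+/+ mice. The groups did not overlap, and the Rpt3-/- arrays nearly coincided. The log2 fold change was 0.73 (standard error 0.13, 95% interval 0.45 to 1.02, limma, adjusted p = 0.00316). The other probes of Fbxo31 did not show the same. Probe 125088, which the scanner reports pair with the same transcript record as probe 301035, was at 7.81, 8.07 and 8.28 in Rpt3-/- mice and at 7.15, 7.92 and 7.72 in Rpt3+/+ mice. These values overlapped by 1 pair of arrays, and the log2 fold change of 0.46 did not pass (adjusted p = 0.179 from limma over 24882 probes). Probe 196058, paired with a different cDNA record, was at 8.57, 9.05 and 9.18 in Rpt3-/- mice and at 8.67, 9.14 and 9.11 in Rpt3+/+ mice. Here the groups lay on top of each other, with a log2 fold change of -0.04 (95% interval -0.46 to 0.39). The change of probe 301035 exceeded that of probe 196058 by 0.77 on the log2 scale, with an exact two-sided permutation p of 0.1, the smallest that 3 arrays against 3 allow. It exceeded that of probe 125088 by 0.28 (exact two-sided permutation p = 0.5). With the probes of each gene averaged Fbxo31 was at 0.38 and was not called (limma, adjusted p = 0.103).

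Fbxo30 encodes the F-box protein MUSA1, which in mouse muscle is known to rise after denervation and to be restrained by BMP signaling. Probe 407087 was at 7.97, 8.07 and 8.05 in Rpt3-/- mice, against 7.06, 7.76 and 7.62 in Rpt3+/+ mice. Every Rpt3-/- array was above every Rpt3+/+ array, but the Rpt3+/+ arrays were spread, with an SD of 0.37 against 0.051. The log2 fold change of 0.55 (95% interval 0.15 to 0.95) did not pass over all genes (limma, adjusted p = 0.0560). It passed without the second Rpt3+/+ array, at 0.71 (limma, adjusted p = 0.0125), and was 0.34 without the first Rpt3+/+ array (limma, adjusted p = 0.0970). The other probe of Fbxo30, 325028, was above background on 1 of the 6 arrays.

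Fbxo21 encodes the F-box protein known in mouse muscle as SMART, another FoxO-dependent gene of atrophy. Its brighter probe, 301017, was at 9.15, 9.04 and 8.79 in Rpt3-/- mice and at 9.11, 8.30 and 8.67 in Rpt3+/+ mice. The groups overlapped, since the first Rpt3+/+ array lay within the Rpt3-/- range. The log2 fold change was 0.30 (95% interval -0.15 to 0.74, limma, adjusted p = 0.345). Without that array it was 0.51 and passed (limma, adjusted p = 0.0352). Probe 35034 of the same gene and the same transcript record varied little, from 8.38 to 8.59 over all 6 arrays, with a log2 fold change of -0.03 (95% interval -0.30 to 0.25). The changes of the 2 probes differed by 0.32 (exact two-sided permutation p = 0.2).

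**Figure D2:**
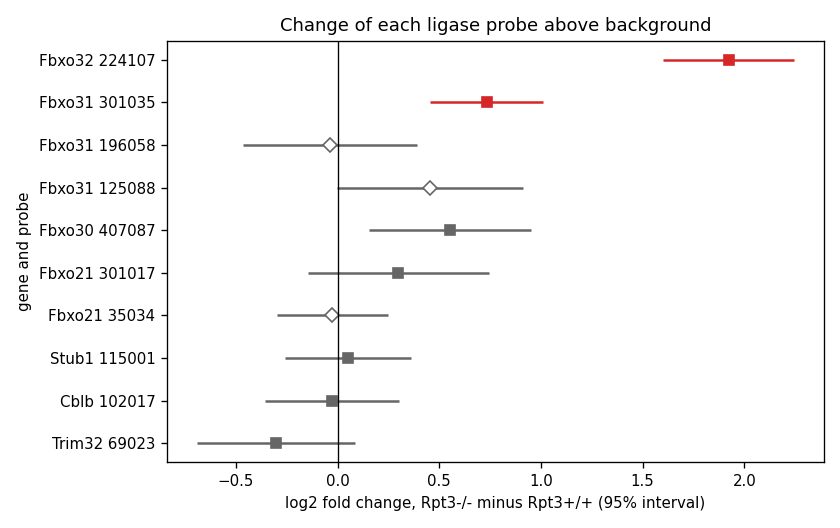
Log2 fold change of Rpt3-/- against Rpt3+/+ mice (x axis) for the 10 ligase probes tested (y axis), with 95% intervals from limma over probes. Red marks an adjusted p under 0.05, squares the probe that stands for its gene and open diamonds other probes of that gene, and 2 probes, 224107 of Fbxo32 and 301035 of Fbxo31, are red.

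Stub1, Cblb and Trim32, the tested ligases that are not F-box proteins, were not called. Stub1 was at 9.38, 9.50 and 9.76 in Rpt3-/- mice and at 9.47, 9.60 and 9.41 in Rpt3+/+ mice. The groups were interleaved, and the log2 fold change was 0.05 with a 95% interval from -0.26 to 0.36. Cblb, which in unloaded muscle is known to act on Irs1, was at 8.95, 8.66 and 8.47 in Rpt3-/- mice and at 8.83, 8.64 and 8.69 in Rpt3+/+ mice. Its Rpt3-/- arrays lay on both sides of the Rpt3+/+ arrays, with a log2 fold change of -0.03 and a 95% interval from -0.36 to 0.31. For both genes the interval did not reach the change of Fbxo31, and smaller changes could not be told from none.
Trim32 encodes a ligase that acts on sarcomere proteins and is mutated in a human limb-girdle muscular dystrophy. It was at 9.02, 8.79 and 9.10 in Rpt3-/- mice and at 8.94, 9.57 and 9.31 in Rpt3+/+ mice. The first Rpt3+/+ array lay within the Rpt3-/- range and the others above it. The log2 fold change was -0.30 (95% interval -0.69 to 0.08, limma, adjusted p = 0.269), and without the first Rpt3+/+ array it was -0.48 and passed (limma, adjusted p = 0.0350). Traf6 was not above background on any array, with log2 intensities between 5.99 and 6.49, and was not tested.

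The genes most like Fbxo32 over the 6 arrays, by the root mean square difference of log2 intensities centered on each gene, were Snx10 (0.120), Pir (0.123), Cpxm1 (0.129), Hsd3b7 (0.145) and Insl6 (0.148). Their log2 fold changes ran from 1.63 for Insl6 to 2.01 for Hsd3b7. For Trim32, the ligase with the lowest log2 fold change, those nearest included Avil (0.0208), Ltn1, Fras1 and Tdp2 (0.0390). Like Trim32 they were highest on the second Rpt3+/+ array, the dimmest of the series, and none was called.

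Promoter sequence was available for 9 of the 10 ligase genes, with 11 entries, from RefSeq on GRCm38.p6. Fbxo32 is not among them. The 250 bases before the start are shown for Fbxo31, the other gene called higher, for Fbxo30, which just missed the threshold, and for Stub1, which was not called. Capitals mark matches, on either strand and overlaps included, to the GC box GGGCGG, the E-box CAGCTG, the FoxO motif GTAAACA and the antioxidant response element TGACNNNGC, which NRF1 and NRF2 bind.
Fbxo31, chr8:121578807-121579056, minus strand: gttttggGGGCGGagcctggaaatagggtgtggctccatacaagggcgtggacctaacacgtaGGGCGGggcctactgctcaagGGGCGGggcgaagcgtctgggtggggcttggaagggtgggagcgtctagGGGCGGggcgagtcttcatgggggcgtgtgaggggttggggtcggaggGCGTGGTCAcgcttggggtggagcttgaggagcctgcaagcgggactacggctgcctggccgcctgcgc
Fbxo30, chr10:11281337-11281586, plus strand: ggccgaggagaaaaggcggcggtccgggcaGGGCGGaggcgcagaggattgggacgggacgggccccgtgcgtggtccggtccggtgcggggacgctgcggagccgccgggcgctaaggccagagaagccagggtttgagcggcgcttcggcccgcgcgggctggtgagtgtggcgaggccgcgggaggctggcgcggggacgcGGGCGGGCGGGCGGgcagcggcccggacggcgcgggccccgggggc
Stub1, chr17:25832920-25833169, minus strand: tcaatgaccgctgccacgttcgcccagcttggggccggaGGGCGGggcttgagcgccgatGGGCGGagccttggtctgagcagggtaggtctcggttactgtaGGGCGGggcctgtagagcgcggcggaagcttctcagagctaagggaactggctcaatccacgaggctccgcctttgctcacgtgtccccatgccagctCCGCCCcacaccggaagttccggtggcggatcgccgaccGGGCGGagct
Fbxo31 held 4 GC boxes and 1 antioxidant response element, read on the reverse strand. Fbxo30 held 4 GC boxes and Stub1 held 5, and neither held any of the other motifs. The FoxO motif was in none of the 11 entries. Among all 32851 entries of the same length 32.7% held the GC box, 13.0% the E-box, 10.2% the antioxidant response element and 3.17% the FoxO motif. A match describes the letters only.

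The ligases were set beside other genes of the same pathway. For the SCF core and the NEDD8 cycle that activates cullins, 4 of 16 tested genes were higher and 1 was lower. As shares these were 25% and 6.25%, against 12.7% and 6.56% of all genes. Of the core genes Skp1 had a log2 fold change of 0.01, Cul1 of -0.32, neither called, and Rbx1 of 0.57 (limma, adjusted p = 0.0346). Ube2m, which conjugates NEDD8, was at 0.80, Cops5, the catalytic subunit of the COP9 signalosome that removes it, at 0.76, and Nedd8 at 0.56, while the COP9 subunit Cops8 was at -0.67 and at -0.01 by its other probe. Rbx1, Nedd8 and Cops8 did not pass without the third Rpt3+/+ array (limma, adjusted p between 0.0739 and 0.154), which left 2 genes higher and none lower. Without the first Rpt3-/- array Rbx1 and Nedd8 did not pass, without the second Rbx1 and without the third Cops8. Without the first Rpt3+/+ array 3 were lower, Cul1 and Uba3 among them.
Of 13 tested genes for ubiquitin, its activating enzyme Uba1 and the E2 enzymes that pass it to ligases, 2 were higher and 4 lower. The shares were 15.4% and 30.8%, against 12.7% and 6.56% of all genes. Ube2d2a, an E2 of broad use, fell by 0.79 on the log2 scale in Rpt3-/- mice (limma, adjusted p = 0.00271), from 12.14 ± 0.14 to 11.36 ± 0.12 (SD, n = 3 each), and passed with any 1 array left out. Ube2g1 was at -0.58, Cdc34, an E2 of SCF ligases, at -0.52, Ube2e1 at -0.47 and Rps27a, which encodes a ubiquitin fusion, at 0.55. Without the third Rpt3+/+ array none of these others passed (limma, adjusted p between 0.0565 and 0.151), and without the third Rpt3-/- array Cdc34 was the only one of them that did. Without the first Rpt3-/- array Ube2e1 and Cdc34 did not pass, and without the second Ube2e1 did not.
Among 20 tested genes listed as other ligases of muscle, 2 were higher and 1 lower, with a median of -0.02. That list includes Zfand5, which binds ubiquitin but is not a ligase. Its shares were 10% higher and 5% lower, against 12.7% and 6.56% of all genes. The HECT ligase Wwp1 was 2.01-fold lower (limma, adjusted p = 0.0173), Ube4b at 0.65 and Ubr4 at 0.54 by its brightest and -0.13 by its other probe. None of them passed without the third Rpt3+/+ array (limma, adjusted p between 0.0627 and 0.0941). Wwp1 and Ube4b did not pass without the first Rpt3-/- array, and Ube4b and Ubr4 not without the second or the third. Without the first Rpt3+/+ array 2 were lower, with Fbxw7 as the other.

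Of the transcription factors and cofactors of the atrophy program, some of which, such as Ppargc1a, are known to restrain it, 2 of 24 tested genes were higher and 3 lower. These were 8.33% and 12.5%, against 12.7% and 6.56% of all genes. Foxo1 was at 8.31, 8.15 and 8.44 in Rpt3-/- mice, against 8.76, 9.04 and 8.93 in Rpt3+/+ mice. The groups did not overlap, and the RNA ran opposite to that of Fbxo32, at a log2 fold change of -0.61 (limma, adjusted p = 0.0115). Foxo3 was at 0.09 and Foxo4 at 0.01, neither called. Nr3c1, the glucocorticoid receptor, was at -0.86, Myog, the myogenic factor myogenin that is known to induce Fbxo32 and Trim63 after denervation, at 1.12, and Cebpd at 0.80. Smad3 relays myostatin signals. All its Rpt3-/- spots were not well above background, and Rpt3+/+ mice were at least 1.47-fold higher, a bound against the lowest signal of probes above background. The bound was not tested. The call of Smad3 rests on its measured log2 fold change of -0.65 (limma, adjusted p = 0.0170), which uses Rpt3-/- values at background. Smad3 could be tested through its Rpt3+/+ arrays alone, and 2 factors were lower among genes above background on all 6 arrays. After adjustment the unpaired test of the study called none of these factors. In limma Myog and Nr3c1 passed with any 1 array left out. Foxo1 did not without the second Rpt3-/- array or the third Rpt3+/+ array, Cebpd failed without the first Rpt3-/-, the third Rpt3-/- or the third Rpt3+/+ array, and Smad3 not without the second or the third Rpt3-/- or the third Rpt3+/+ array (limma, adjusted p between 0.0527 and 0.0841).
Upstream, in a list for insulin, BMP and myostatin signaling, 3 of 21 tested genes were higher and 3 lower. That is 14.3% in each direction, against 12.7% of all genes higher and 6.56% lower. The largest change was that of Tnfrsf12a, which was counted in this list although it encodes the receptor of another cytokine, TWEAK. Tnfrsf12a was at 10.35, 10.60 and 10.60 in Rpt3-/- mice and at 7.94, 8.31 and 7.79 in Rpt3+/+ mice. Its log2 fold change was 2.50 (limma, adjusted p = 1.35e-05). Mstn, myostatin, was at 9.38, 9.82 and 9.55 against 11.25, 11.16 and 11.19, a log2 fold change of -1.62. Irs1, the substrate that Fbxo40 and Cblb share, was at -0.61, Akt1 at 0.55 and Pik3r1 at 0.51. Without the third Rpt3+/+ array Irs1, Akt1 and Pik3r1 did not pass (limma, adjusted p between 0.0736 and 0.105), and 1 gene, Tnfrsf12a, was higher and 1 lower. Without the first or the second Rpt3-/- array Akt1 and Pik3r1 did not pass and 1 gene, Tnfrsf12a, was higher, and without the third Pik3r1 did not.

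Of 23 tested substrates and partners of the ligases 8 were higher and 1, Irs1, was lower, with a median log2 fold change of 0.37. The share higher was 34.8%, against 12.7% of all genes. Among the chaperones and cochaperones of the list, Hsp90aa1 was at 1.16, Bag2 at 1.01 and at 0.30 by its other probe, Hspa4 at 0.88 and Hsp90ab1 at 0.75, while Hspa8 at 0.04, above background on 3 of the 6 arrays, and Bag3 at 0.02 were not called. Sqstm1, which encodes the ubiquitin-binding protein p62 and is a partner of Traf6, was at 0.72. Eif3f, the translation factor that atrogin-1 targets, was at 0.47 (limma, adjusted p = 0.0274), a gene singled out after its value was seen. Of the 6 fits that each left out 1 array, Eif3f passed in that without the first Rpt3+/+ array and in no other, and Sqstm1 did not pass without the second or the third Rpt3-/- or the third Rpt3+/+ array. The count of higher genes was 5 without the third Rpt3-/- array and 5 without the third Rpt3+/+ array.
A further list held other genes known to rise in wasting muscle, the atrogenes. Of 23 tested, 12 (52.2%) were higher, against 12.7% of all genes, and 1, Foxo1, was lower, with a median of 0.50. Proteasome subunit genes were among the 12. Mt1, a metallothionein, was at 14.19, 13.22 and 13.48 in Rpt3-/- mice and at 11.87, 11.15 and 11.50 in Rpt3+/+ mice. Gadd45a, a stress gene of denervated muscle, was at 12.06, 12.03 and 11.96 against 10.43, 10.17 and 10.18. In both genes the groups stood apart, with log2 fold changes of 2.13 and 1.75. Cdkn1a, the cell cycle inhibitor p21, was at 1.92, and Ctsl, the lysosomal protease cathepsin L, at 1.58. Mt2, another metallothionein, was above background on all 3 Rpt3-/- arrays but on 1 of the 3 Rpt3+/+ arrays, so its value of 1.75 rests on a Rpt3+/+ level mostly at background. Among genes above background on all 6 arrays 11 were higher. Mt1, Gadd45a, Cdkn1a and Ctsl passed with any 1 array left out, and the count of higher genes was 8 without the third Rpt3-/- array. Foxo1, Irs1, Sqstm1, Ubb and Ube2n each stand in more than 1 of these lists, which were written with earlier results of the same data known.

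**Figure D3:**
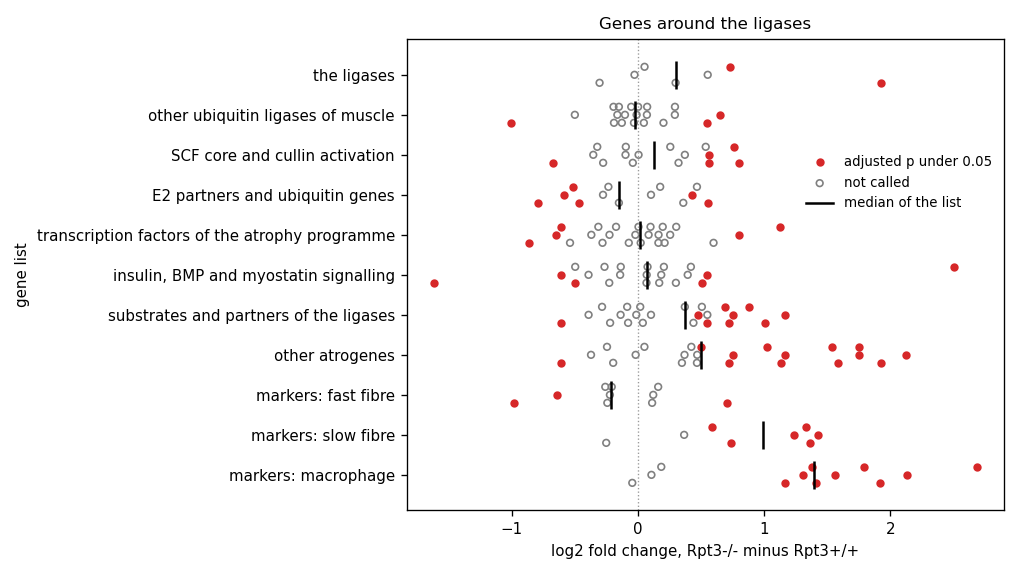
Log2 fold change (x axis) of each tested gene in the ligase list, the 7 pathway lists and 3 marker lists (y axis). Red points have an adjusted p under 0.05 from limma, open points were not called and bars are list medians, which run from -0.21 for fast fiber markers to 1.39 for macrophage markers.

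Markers of other cells and fiber types moved on the same arrays. All 10 fast fiber markers were tested, 1 was higher and 2 were lower, and their summed normalized intensity was between 179729 and 180883 on the Rpt3-/- arrays and between 192052 and 206258 on the Rpt3+/+ arrays. With cyclic loess 7 of them were lower, and with centering on Actb 6. Several fast fiber markers lay at the top of the scale, such as Tnni2, Tnnc2 and Mylpf, with group means between 14.63 and 14.79. There quantile normalization gives every array the same few values, so these genes and the sum can move little. Myh4, a fast myosin heavy chain, was at -0.26 by its brightest probe, not called, and at -1.79 by its other probe (limma over probes, adjusted p = 0.000453). The fast fiber markers called were Myh1, another fast myosin heavy chain, at 0.70, Actn3 at -0.64 and Casq1 at -0.98. Of 8 slow fiber markers 6 were higher, and the sum was between 22564 and 23510 against 14486 and 17840. Those not called were Myh7, the slow myosin heavy chain, at 0.37 by either probe, and Myl3, at -0.25 by its brighter and 0.16 by its other probe. Of 12 tested macrophage markers 9 were higher, with Ctss at 2.68 and C1qa at 2.13, and the sum was between 7810 and 11716 against 2946 and 3437. The count was 7 among genes above background on all 6 arrays, since Aif1 was above background on 1 and Fcer1g on 2 of the Rpt3+/+ arrays, and 6 by the unpaired test after adjustment. The macrophage genes Adgre1, Ptprc and Itgam were not above background on enough arrays to be tested, and Csf1r and Cd68 had no named probe. Of 7 tested lymphocyte markers none was higher and 2 were lower, none once the first Rpt3-/-, the third Rpt3-/- or the third Rpt3+/+ array was left out. Cd79a was at -0.64 and was called, of the 6 fits that left out 1 array, in that without the second Rpt3+/+ array alone, and Cd3e, Cd8a, Ms4a1 and Nkg7 were not above background on enough arrays. The lymphocyte sum was between 2249 and 2453 against 2495 and 3625. Of 7 tested endothelial markers none was called, with a sum between 2186 and 2480 against 2326 and 2796. Of 6 fibroblast markers 2 were higher, with a sum between 26265 and 28000 against 17995 and 21165. Of 3 tested adipocyte markers 2 were higher. The satellite cell markers tested were Myf5, Cdh15 and Des, while Pax7 was not above background on enough arrays. None of these 3 was called, and all 3 had an unadjusted p under 0.05 from limma. Des was bright, with means of 13.27 in Rpt3-/- and 12.90 in Rpt3+/+ mice, and also stands in the list of substrates. By the unpaired test no adipocyte marker was higher after adjustment, and with median centering Myf5, Cdh15 and Des were. Without the first Rpt3+/+ array the endothelial genes Pecam1 and Tek were lower, and without the third 1 fibroblast marker was higher. The part of these markers in the ligase values was not tested.

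**Figure D4:**
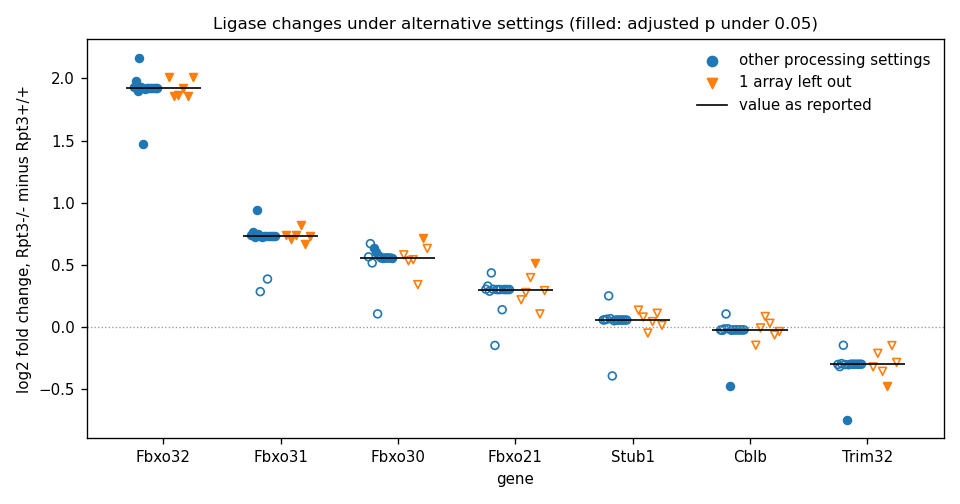
Log2 fold change (y axis) of the 7 tested ligase genes (x axis) under 14 other processing settings (blue circles) and with each of the 6 arrays left out (orange triangles). Filled symbols have an adjusted p under 0.05 and lines mark the reported values, and Fbxo32 is filled throughout, between 1.47 and 2.17.

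The call of Fbxo32 was made under each of the 20 alternatives run, and that of Fbxo31 under 18 of them. All alternatives but the mean of probes let the brightest probe stand for Fbxo31, so they cannot speak to the disagreement of its probes. With the mean of probes Fbxo31 was at 0.38 and not called. Calls of the other ligases came and went with the scaling, the filter, the model or a single array, and Stub1 was never called. The reference gene Actb was at a log2 fold change of 0.45 itself, and with each array centered on Actb the median of all genes moved to -0.46. Relative to that shift the order of the ligases stayed as it was, since every gene of an array is moved alike. Fbxo32 was then at 1.47 and still called, Fbxo31 at 0.28 and not called (limma, adjusted p = 0.136), and Trim32 at -0.75 and Cblb at -0.48 were called lower.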

How the data were processed

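Muscle RNA of 3 Rpt3-/- and 3 Rpt3+/+ mice was measured on CodeLink mouse whole-genome arrays, 1 array per mouse and slide. The deposited scanner reports, which the authors exported from the scanner software (CodeLink Expression Analysis, version 5.0.0.31312), give for each spot an intensity, its local background and a quality flag, without normalization between arrays. A second table that the authors deposited holds intensities that, by their values, are background-subtracted and quantile normalized, and served as an alternative. Of 34967 transcript probes 21615 were named by the platform annotation and 535 by RefSeq accession, while 681 had several genes and 12136 no name.
Masked and contaminated spots were left out. In R 4.3.3 with limma 3.58.1 normexp (offset 50) corrected the background, which shrinks the changes of dim genes, the 1260 control spots were then dropped, and quantile normalization followed. The log2 values, computed from the deposited intensities, went into lmFit and eBayes with Benjamini-Hochberg adjustment. The brightest probe stood for a gene, and all probes of the ligases were also fitted over 24882 probes. Named genes were the ligases, up to 5 called genes with the largest change in each list, fixed regulators, and the 5 genes nearest to the ligase with the largest rise and to that with the largest fall. Some genes that the rule would name are not reported here. In lists whose named genes are fewer, the remaining calls are given as counts. The ligase genes and the lists were chosen with earlier results of these data known. Sequences were read with Python 3.11.15. The fit was tested on simulated data. Precision is limited by the number of arrays and by how far a spot lies over its background. Alternatives were other background corrections, normalizations, filters, probe rules and variance models, the unpaired test of the study, a replicate block and the omission of each array in turn. With 1 array on each slide, no slide term could be fitted. The labels describe 3 separate mice in each group.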

Additional observations from a re-analysis of the deposited data

How the results depend on the processing

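Under 14 other settings 2 to 3 of the ligases were higher, apart from 1 when each array was centered on Actb and 1 with the mean of probes, and none was lower except 2 with Actb centering. With 1 array left out 2 to 3 were higher and 0 to 1 lower. Fbxo30 and Trim32 kept their sign under every alternative run. Fbxo21 was at -0.15 and Stub1 at -0.40 with Actb centering, which lowers every gene alike and takes the median of all genes to -0.46. Cblb was at 0.10 with median centering, and with 1 array left out Cblb ran from -0.15 to 0.08 (0.03 without the first Rpt3+/+ array, 0.082 without the third Rpt3-/- array) and Stub1 from -0.05 to 0.13 (-0.051 without the third Rpt3-/- array). Fbxo30 was called with median centering (0.63), cyclic loess (0.60), the stricter filter (0.55) and the replicate block (0.55).
Over all genes 1870 were higher and 967 lower. With Actb centering these were 640 and 7987, with the study's unpaired test 940 and 427, and with median centering 2556 and 600, so that the share of calls that were higher was 65.9%, and 7.42% and 81.0% with Actb and median centering. With 1 array left out they ran from 1087 to 2315 and from 387 to 1444. With the replicate block they were 1722 and 873. The deviations of same-numbered arrays correlated at 0.126, -0.438 and 0.098, so the numbers were not taken as pairs.
Over the 14 settings the calls of the lists ran, higher and lower, from 0 to 2 and 1 to 11 for other ligases, 0 to 8 and 0 to 8 for the SCF core, 0 to 4 and 2 to 7 for E2 genes, 0 to 3 and 0 to 12 for transcription factors, 1 to 5 and 1 to 10 for signaling, 2 to 12 and 0 to 7 for substrates and 8 to 14 and 0 to 5 for atrogenes. These upper counts of lower genes came with Actb centering. For the markers they ran from 0 to 1 and 2 to 7 for fast fiber, 4 to 6 and 0 to 1 for slow fiber, 6 to 9 and 0 to 0 for macrophage, 0 to 0 and 0 to 4 for lymphocyte, 0 to 0 and 0 to 6 for endothelial, 0 to 4 and 0 to 0 for fibroblast, 0 to 3 and 0 to 0 for adipocyte and 0 to 3 and 0 to 0 for satellite cell markers. Traf6, 1 probe of Fbxo32 and 1 of Fbxo30 were too dim to be tested.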
